A study of Mus musculus with 51 samples.

Results

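*Tead4*, *Gata3*, *Tfap2a*, *Elf5*, *Gcm1*, *Krt7* and *Cga* were taken as genes associated with the trophoblast lineage or the amnion, the extra-embryonic tissues that lie next to the embryo proper. These 7 genes were chosen by symbol, and all 7 were found in each of the 9 expression tables, which list 24538 genes. Transcripts were measured by RNA-seq in 14 conditions of mouse embryonic stem cells (mESCs) and of the mesodermal cells made from them. *Krt7* was the one abundant member: it reached an FPKM of 46.4 on day 3 in wild-type (WT) cells and 113 in cells without *Eomes* and *T*. *Elf5* and *Cga* were listed at 0 in 13 of 14 conditions each, and no other member passed an FPKM of 3.53 in any condition.

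mESCs were freed of feeder cells, aggregated in hanging drops (the ES stage) and then exposed to 20 ng/ml Bmp4 on fibronectin, a treatment intended to form cardiac mesoderm. The WT line F1G4 was sampled at ES and on days 1, 2 and 3, with 2 RNA samples per stage. Cells without *Eomes* (*Eomes* KO), without *T* (*T* KO) or without both (dKO) were made in F1G4 by cutting out the promoter and first exon with paired CRISPR/Cas9 nickases, and each was sampled on days 2 and 3. The dKO was built on the *Eomes* KO line, and each KO line was grown from 1 clone. A separate line, of strain 129S/SvEvxC57BL/6 and with loxP sites around the first exon of *Smad4*, served as WT for the *Smad4* KO clone that transient Cre produced from it; both were sampled on days 1 and 2. All differentiated cells, KO and WT, received Bmp4, so no comparison of a KO with WT is one of Bmp4 against no Bmp4. ES cells were taken before Bmp4, before the change to differentiation medium and before plating on fibronectin. A comparison with ES therefore differs in all of these and in time at once. The labels give 1 RNA sample for each KO line and day, and the tables give 1 value per condition. No value therefore has an SD, an n or a test. A gene was examined in a comparison when its FPKM (fragments per length of transcript, scaled to the mapped fragments of the library) exceeded 1 in either condition, and was called when its log2 ratio was then above 1 or below −1. Such a call is a rule of size and not of significance, and the number of reads behind an FPKM is unknown.

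In the blastocyst, Tead4 binds DNA together with the coactivators Yap and Taz and turns on the trophectoderm programme, while Gata3 and Tfap2 proteins act alongside Cdx2 in the same cells. Elf5 maintains trophoblast stem cells, and Gcm1 directs the formation of the syncytial layer of the placental labyrinth. Krt7 is a type II keratin that pairs with type I keratins to build the filaments of simple epithelia, trophoblast and amnion included. *Cga* encodes the alpha subunit that glycoprotein hormones share, and is included because the study lists it with *Gcm1* as a trophoblast gene. Whether *Cga* marks mouse trophoblast was not tested here. BMP4 is known to drive human pluripotent cells towards amnion-like and trophoblast-like states under some culture conditions.

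The defining genes of the labelled cell type were present in WT cells. On day 3 the nascent mesoderm genes *T*, *Fgf8*, *Eomes*, *Mixl1* and *Mesp1* had FPKM of 319.9, 55.3, 19.4, 15.6 and 5.45 in F1G4 WT. *Mesp1* was listed at 0 in all 3 F1G4 KO lines on that day. The targeted genes were lower in the lines that lack them. *Eomes* FPKM was 2.42 in *Eomes* KO against 9.42 in WT on day 2 and 0.276 against 20.3 on day 3, and *T* FPKM was 6.64 in *T* KO against 44.8 and 3.00 against 323. In the dKO, *Eomes* was at 1.24 and 0.346 and *T* at 2.77 and 1.93 on days 2 and 3. *Smad4* FPKM over the whole gene does not read out the deletion of 1 exon, and was 39.4 in KO against 33.8 in WT on day 1. Some columns stood apart from the others before any member was considered. *Eomes* KO day 3 had the smallest sum of FPKM over all genes (400830), and 16.4% of examined genes were called against its WT. The largest sum was that of dKO day 2 (607878), with 7.99% called. *T* KO day 2 had 15.6% called, against 4.77% to 11% in the other 6 comparisons of a KO with WT. Each is the only column of its condition, so a result that rests on it cannot be given without it.

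The stretches just upstream of 3 members are shown because these genes differed in level and in their response to *Smad4* loss, and because the protein families of 3 members, Tfap2a (AP-2), Gata3 (GATA) and Tead4 (TEAD), bind short motifs that can be looked for there. Each window is the 250 bases before the annotated RefSeq start on GRCm38.p6 (the mm10 build of the tables), 5′ to 3′ on the strand of the gene. The *Gata3* start in the table lies inside the annotated span of the gene. Capitals mark matches, on either strand, to the AP-2 motif GCCNNNGGC, the TEAD motif CATTCC, the GATA motif AGATAA, the T-box half-site TCACACC, the Smad GC motif GGCGCC or the Smad palindrome GTCTAGAC. *Krt7* (chr15:101412153-101412402, plus strand), *Gata3* (chr2:9878601-9878850, minus strand) and *Gcm1* (chr9:78051708-78051957, plus strand) read as follows.
Krt7: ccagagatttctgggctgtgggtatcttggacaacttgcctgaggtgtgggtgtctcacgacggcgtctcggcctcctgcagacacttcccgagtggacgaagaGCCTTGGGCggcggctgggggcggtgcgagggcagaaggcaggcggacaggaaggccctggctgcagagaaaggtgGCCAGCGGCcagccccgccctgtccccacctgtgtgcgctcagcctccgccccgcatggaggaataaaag
Gata3: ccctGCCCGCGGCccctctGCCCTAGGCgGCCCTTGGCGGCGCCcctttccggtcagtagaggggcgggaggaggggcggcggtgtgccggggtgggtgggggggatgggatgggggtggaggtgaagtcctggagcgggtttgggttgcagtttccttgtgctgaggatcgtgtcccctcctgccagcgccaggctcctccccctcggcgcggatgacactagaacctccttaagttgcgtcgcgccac
Gcm1: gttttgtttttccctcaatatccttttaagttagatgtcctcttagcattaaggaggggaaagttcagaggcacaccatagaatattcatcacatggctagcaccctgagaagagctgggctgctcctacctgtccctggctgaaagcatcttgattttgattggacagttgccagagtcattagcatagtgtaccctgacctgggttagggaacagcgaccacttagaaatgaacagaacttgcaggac
The *Krt7* window held 2 AP-2 matches, at 146 and 70 bases before the start, and no other motif. The *Gata3* window held 3 AP-2 matches, at 246, 231 and 221 bases, the last of them directly next to a Smad GC match at 212 bases. The *Gcm1* window held none of the 6 motifs. Of all 32851 upstream windows of this length, 13.7% held AP-2, 12.6% TEAD, 9.99% GATA, 9.59% the Smad GC motif, 3.33% the T-box half-site and 0.167% the Smad palindrome. Windows were found for 6 of the 7 members. Those of *Tfap2a* (2 starts) and *Cga* held no match, and the 2 starts of *Elf5* held 1 TEAD match at 173 bases and 1 T-box match at 72 bases. A match is a description of the letters in the window and not a bound site.

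The members lie on separate parts of the genome. *Gata3* spans chr2:9857078-9887953 and *Elf5* chr2:103412098-103450989, *Tfap2a* spans chr13:40713802-40738238, *Gcm1* chr9:78051958-78065624, *Tead4* chr6:128227143-128300813, *Cga* chr4:34893779-34907374 and *Krt7* chr15:101412403-101427806. All 7 are protein-coding. RefSeq places the lncRNA *9230102O04Rik* on the same strand as *Gata3* and *4930412O13Rik* on the opposite strand within its span, and *Gm26688* opposite *Tfap2a*. The libraries kept strand, but the arguments that the study lists for Cuffdiff, which computed FPKM, set no library type. Reads of these overlapping genes may therefore not be told apart from those of the member. The other 5 members overlap no annotated gene.

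**Figure D1:**
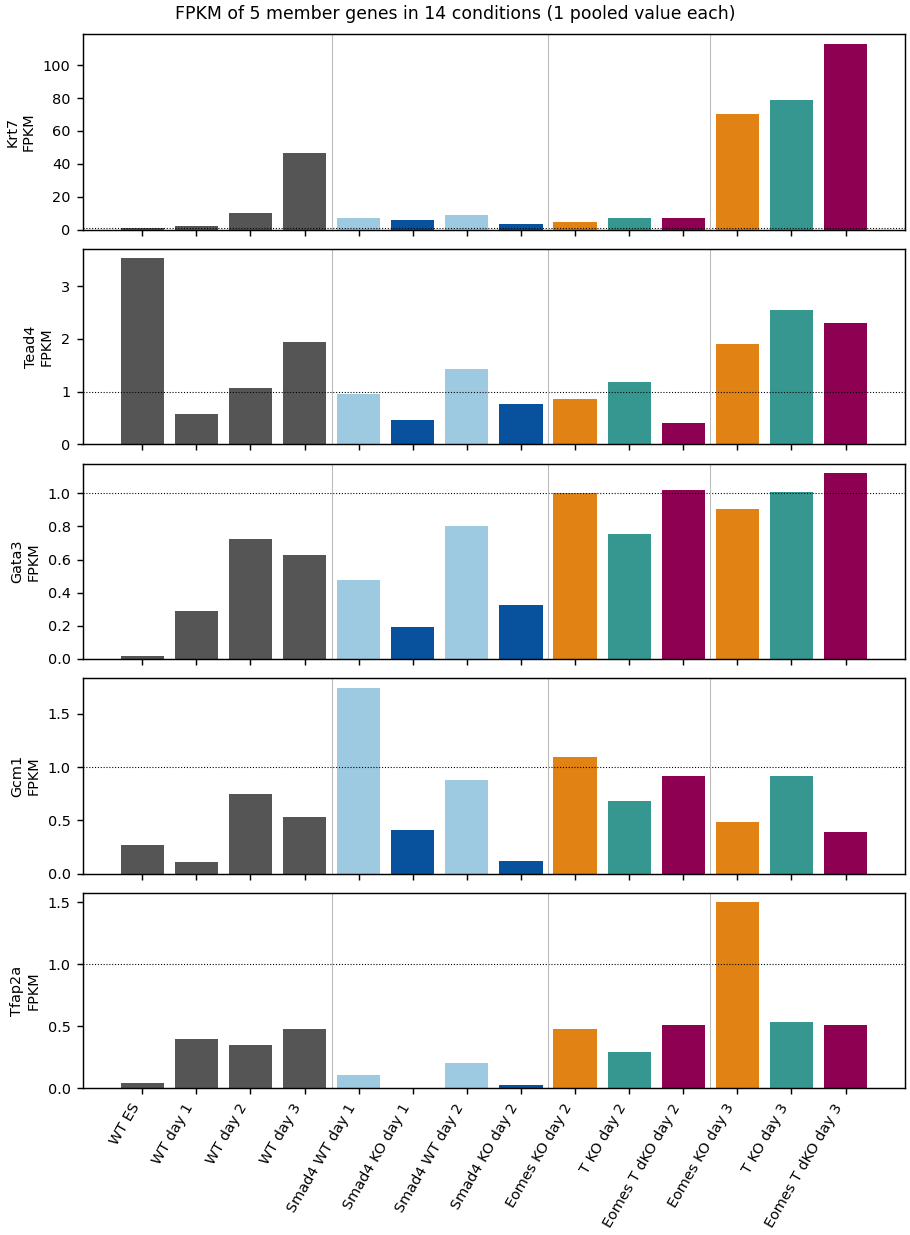
FPKM (linear axis from 0, a separate scale for each gene) of *Krt7*, *Tead4*, *Gata3*, *Gcm1* and *Tfap2a* in 14 conditions, with 1 bar for the single pooled value of each condition and a dotted line at FPKM 1. *Krt7* climbs to its tallest bars on day 3 (46.4 in WT, 113 in dKO), *Tead4* is tallest in ES cells (3.53), and *Gcm1* in WT cells of the *Smad4* line on day 1 (1.75); *Elf5* and *Cga* are left out because 13 of their 14 values are 0.

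The WT time course asked whether these genes came on while Bmp4 made mesoderm. Day 1 against ES had 2 members called among 13.5% of all examined genes, *Tead4* lower and *Krt7* higher. *Krt7* alone was called higher in the later steps, where 11.3% (day 2 against day 1), 10.2% (day 3 against day 2) and 31.1% (day 3 against ES) of examined genes were called in either direction. Only *Tead4* and *Krt7* passed FPKM 1 at any of the 4 WT stages, so just these 2 were examined. Over the 6 members above 0 at ES or on day 3, the median log2 ratio of day 3 to ES, with a pseudocount of 0.1, was 1.39, and it was −0.02 over all examined genes. The 6 include members below FPKM 1, unlike the examined genes, and ratios at such levels depend on the pseudocount. For *Gata3* the log2 ratio was 2.62 with a pseudocount of 0.1 and 0.68 with 1.

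*Tead4*, the DNA-binding partner of Yap, had its highest level before differentiation. Its FPKM was 3.53 at ES, 0.570 on day 1, 1.07 on day 2 and 1.95 on day 3. It was thus 6.20-fold lower on day 1 than at ES (log2 ratio −2.63), and then 1.88-fold and 1.82-fold higher with each further day, neither of which met the rule. *Tead2* was the most abundant family member at every stage, with FPKM of 35.8, 69.0, 95.2 and 97.8 over the same 4 stages. *Tead4* made up 7.68% of the summed FPKM of the 4 *Tead* genes at ES and 0.780%, 1.03% and 1.76% on days 1, 2 and 3. Of 10 Hippo pathway genes and Tead targets, 3 were called higher on day 1 against ES, the step at which *Tead4* was called lower, and none was called lower (13.5% of all examined genes were called in either direction). On day 2 against day 1, when *Tead4* was higher too but not called, 8 of the 10 were called higher and none lower (11.3% of all examined genes). From day 1 to day 2 the matricellular Tead target *Cyr61* went from FPKM 6.47 to 47.7 and the Yap-binding scaffold *Amot* from 4.75 to 16.1.

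*Gata3*, a zinc-finger factor of trophectoderm, was lowest at ES (FPKM 0.0182) and stood at 0.287, 0.723 and 0.628 on days 1, 2 and 3. The values of days 2 and 3 are 1.15-fold apart, and none exceeded FPKM 1. Its relative *Gata2*, also a trophoblast regulator, had FPKM of 0.0796, 0.825, 2.02 and 3.65, so that *Gata3* made up 24.1% of the summed *Gata* FPKM on day 2 and 11.5% on day 3. *Tfap2a*, an AP-2 factor of trophoblast, surface ectoderm and neural crest, went from 0.0459 at ES to 0.395, 0.349 and 0.477. *Tfap2c*, its close relative in trophoblast stem cells and in naive pluripotent cells, ran the other way early on, with 17.0 at ES and 3.20 on day 1. *Gcm1* stood at 0.264, 0.105, 0.746 and 0.532. All of the *Gata3*, *Tfap2a* and *Gcm1* values in F1G4 WT were below FPKM 1, so the folds between them were not examined. *Elf5* was listed at 0 at all 4 WT stages. *Cga* was listed at 0.232 at ES and at 0 on days 1, 2 and 3.

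*Krt7* was higher at every WT stage than at the one before, with FPKM of 0.882, 2.31, 10.2 and 46.4. The steps were 2.62-fold, 4.40-fold and 4.57-fold (log2 ratios 1.39, 2.14 and 2.19). From ES to day 3 the ratio was 52.7-fold (log2 ratio 5.72), which ranked 98 from the top among 11554 examined genes. The gain was shared by the other keratins of simple epithelia. *Krt8*, the other type II keratin of the list, had FPKM of 12.4, 37.6, 233 and 619. *Krt18*, its type I partner, had 15.4, 80.7, 312 and 846, and *Krt19*, also type I, had 2.21, 3.95, 44.8 and 144. All 4 keratins were called higher on day 2 against day 1, on day 3 against day 2 and on day 3 against ES, and 3 of 4 (all but *Krt19*) on day 1 against ES. Of all examined genes, 11.3%, 10.2%, 31.1% and 13.5% were called in these comparisons, in either direction. *Krt7* remained the least abundant of the 4, at 2.85% of their summed FPKM at ES, 1.85% on day 1, 1.70% on day 2 and 2.81% on day 3. In these bulk samples, more cells of an epithelial kind and more keratin RNA per cell cannot be told apart.

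**Figure D2:**
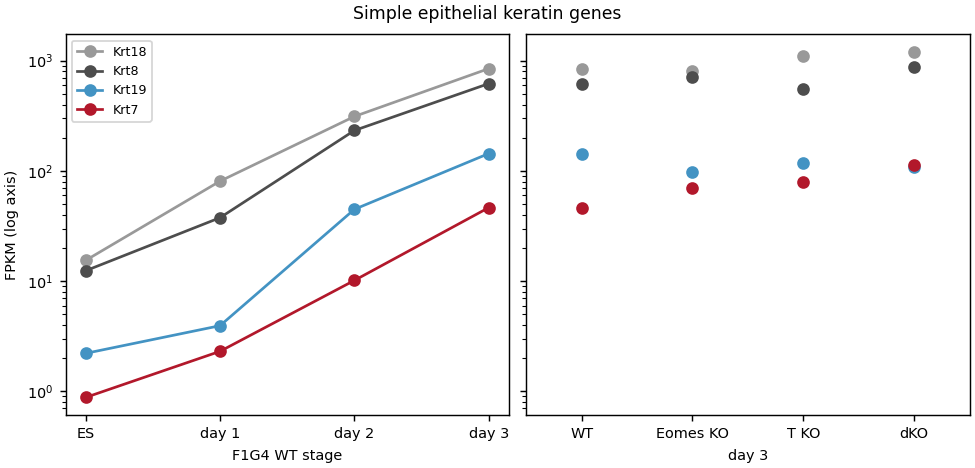
FPKM (log axis) of *Krt18*, *Krt8*, *Krt19* and *Krt7*, 1 pooled value per point, over the 4 stages of F1G4 WT (left) and in the 4 genotypes on day 3 (right; WT from the time course). All 4 genes climb from ES to day 3, and *Krt7* goes from 46.4 in WT to 113 in dKO while *Krt19* goes from 144 to 109.6.

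The comparison of *Smad4* KO with the WT cells of its own line asked what depends on the shared partner of the BMP and Nodal Smads. On day 1, 2 of the 7 members were examined and 1 was called (*Gcm1*, lower), where 4.77% of examined genes were. On day 2, 2 members were examined and 1 was called (*Krt7*, lower), where 5.77% were. On both days all 5 members with a value above 0 were lower in KO than in WT. Their median log2 ratio, with a pseudocount of 0.1, was −0.96 on day 1 and −1.25 on day 2, beside −0.0045 and −0.0094 over all examined genes. Most of these differences lie below FPKM 1 in both genotypes and were not examined.

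*Gcm1* FPKM was 1.75 in WT and 0.412 in *Smad4* KO on day 1, which is 4.25-fold lower (log2 ratio −2.09), and 0.879 and 0.114 on day 2. *Krt7* FPKM was 6.78 in WT and 5.81 in KO on day 1, and 9.02 and 3.28 on day 2, 2.75-fold lower (log2 ratio −1.46). The day 1 values of *Krt7* were thus near to each other, and the gap lay on day 2, where *Krt7* was 1.33-fold higher than on day 1 in WT and 1.77-fold lower in KO. *Tead4* had 0.963 (WT) and 0.467 (KO) on day 1, followed by 1.43 and 0.761 (log2 ratio −0.91). *Gata3* stood at 0.475 and 0.196, then at 0.804 and 0.324, with log2 ratios of −1.28 and −1.31 at levels too low to be examined. On day 1 *Tfap2a* had an FPKM of 0.109 in WT and was listed at 0 in KO, and on day 2 the pair was 0.202 and 0.0268. *Elf5* and *Cga* were listed at 0 in all 4 conditions of this line. Direct BMP response genes, such as the *Id* inhibitors of bHLH factors and *Msx2*, were lower in the same KO cells, with 7 of 8 called lower on day 1 and 6 of 8 on day 2. Of all examined genes, 4.77% and 5.77% were called on these days, in either direction. The trophoblast stem cell regulators *Gata2* (1.62 in WT and 0.142 in KO on day 1) and *Tfap2c* (12.8 and 6.34) were among 4 of 7 called lower on day 1. On day 2, 6 of the 7 were examined, and 4 were again called lower and 1 higher, the FGF receptor *Fgfr2* (6.19 in WT and 16.3 in KO). The same shares of all examined genes stand beside these counts. The other simple keratins were lower too, but none was called: *Krt8* FPKM was 192 in WT and 119.8 in KO on day 2, *Krt18* 265 and 178, and *Krt19* 35.8 and 27.6. *Krt7* was 1.80% of the summed keratin FPKM in WT on day 2 and 1.00% in KO.

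**Figure D3:**
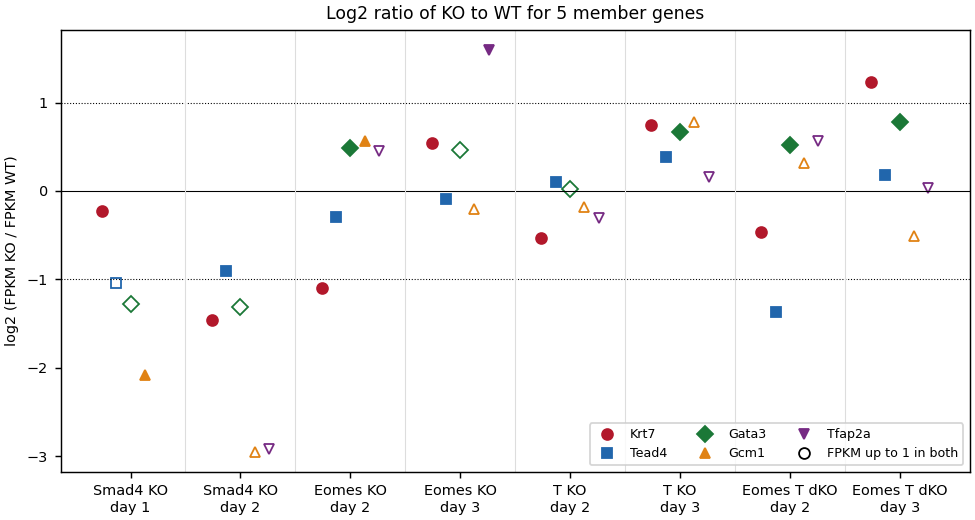
Log2 ratio of FPKM in KO to FPKM in WT of the same table for *Krt7*, *Tead4*, *Gata3*, *Gcm1* and *Tfap2a* in the 8 comparisons of a KO line with WT. Filled symbols were examined (FPKM above 1 in either genotype), open symbols were not, dotted lines mark 1 and −1, and there is no point for *Tfap2a* in *Smad4* KO day 1, where it is listed at 0. All points of the *Smad4* line lie below 0, and *Krt7* lies below 0 on day 2 and above 0 on day 3 in the 3 F1G4 KO lines.

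*Eomes*, *T* and dKO cells were compared with F1G4 WT to learn what depends on these T-box factors. The 3 comparisons of a day use the same WT cells, so they are not independent of each other. Of the 7 members, 4 were examined in *Eomes* KO, 2 in *T* KO and 3 in dKO on day 2. On day 3, 3 were examined in each line. On day 2, 1 member was called in *Eomes* KO (*Krt7*, lower; 7.52% of all examined genes), none in *T* KO (15.6%) and 1 in dKO (*Tead4*, lower; 7.99%). On day 3, 1 was called in *Eomes* KO (*Tfap2a*, higher; 16.4%), none in *T* KO (6.04%) and 1 in dKO (*Krt7*, higher; 11%). On day 3 all 6 members with a value above 0 were higher in *T* KO than in WT, and 3 of 5 in *Eomes* KO and 4 of 5 in dKO were. On the TPM scale, which sets each column to the same sum, *Gcm1* and *Tead4* in *Eomes* KO moved to just above WT (log2 ratios 0.085 and 0.19) and *Tfap2a* in dKO to just below (−0.075).

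*Tead4* FPKM on day 2 was 0.861 in *Eomes* KO, 1.18 in *T* KO and 0.411 in dKO, beside 1.06, 1.10 and 1.06 in the WT columns of the same tables. The dKO value was 2.57-fold below WT (log2 ratio −1.36), the lowest *Tead4* FPKM of all 14 conditions. The dKO day 2 column is also 1 of those set apart above, and on the TPM scale this log2 ratio was −1.77. On day 3 *Tead4* was at 1.91, 2.56 and 2.30 in the 3 KO lines and at 2.04, 1.97 and 2.03 in WT, and none was called. *Tead2* in dKO on day 2 had an FPKM of 96.0 against 94.3. Of the 10 Hippo pathway genes and Tead targets, 4 were called lower in dKO on day 2 (*Amot*, *Amotl2*, *Lats2* and *Cyr61*), 3 in *Eomes* KO (*Amot*, *Lats2* and *Cyr61*) and 2 in *T* KO (*Yap1* and *Cyr61*), and none was called higher. The shares of all examined genes called were 7.99%, 7.52% and 15.6%, so the 2 of 10 in *T* KO lie near the share over all genes. Their median log2 ratios, with a pseudocount of 0.1, were −0.87, −0.77 and −0.69; *Tead4* itself was called in the dKO alone.

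*Gata3* FPKM was 1.00 in *Eomes* KO, 0.756 in *T* KO and 1.02 in dKO on day 2, and 0.905, 1.01 and 1.12 on day 3. WT values ranged from 0.633 to 0.745 in these tables, so every KO value was above its WT, by 1.02-fold to 1.72-fold, and none was called. *Tfap2a* stood at 0.474, 0.290 and 0.510 on day 2. On day 3 it was at 1.50 in *Eomes* KO against 0.498 in WT, 3.01-fold higher (log2 ratio 1.59), while *T* KO (0.537) and dKO (0.507) were within 1.12-fold of WT. The *Eomes* KO day 3 column, the highest *Tfap2a* value of all 14 conditions, is also 1 of the columns set apart above. The dKO was built on that same KO line and did not share the increase. *Gcm1* was at 1.09, 0.679 and 0.921 on day 2 and at 0.483, 0.920 and 0.389 on day 3, all within 1.71-fold of WT; on day 2 the dKO value was above WT by a log2 ratio of 0.32, but below by −0.089 on the TPM scale. *Elf5* had its single value above 0 in *T* KO on day 3, at 0.0125, and *Cga* was listed at 0 in all 6 columns.

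*Krt7* differed from WT in opposite directions on the 2 days. On day 2 its FPKM was 4.72 in *Eomes* KO, 7.25 in *T* KO and 7.29 in dKO, and 10.1, 10.5 and 10.0 in the matching WT columns, with log2 ratios of −1.09, −0.53 and −0.46. On day 3 it was 70.4, 78.6 and 113 against 48.4, 46.8 and 48.2, with log2 ratios of 0.54, 0.75 and 1.23. The dKO value on day 3 was 2.35-fold above WT and the highest of all 14 conditions. From day 2 to day 3 *Krt7* was 14.9-fold higher in *Eomes* KO, 10.9-fold in *T* KO and 15.5-fold in dKO, and 4.57-fold in WT. These ratios cross tables that were normalized separately; the WT columns of the KO tables differed from the time course by a median factor of 0.989 to 1.04.

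The keratin partners did not follow *Krt7* in full. On day 2 all 4 simple keratins were below WT in all 3 KO lines, and *Krt19* was called lower in *Eomes* KO (11.3 against 44.4) and in dKO (15.8 against 44.3). On day 3 *Krt19* was still below WT in each line, at 98.7, 117 and 109.6 against 149.7, 145 and 149. *Krt8* on day 3 was at 713, 549 and 870.3 against 645, 624 and 642, and *Krt18* at 807, 1099 and 1209 against 882, 853 and 878, all short of the rule. *Krt7* therefore made up more of the summed keratin FPKM on day 3 in the KO lines, at 4.17% in *Eomes* KO, 4.26% in *T* KO and 4.92% in dKO, than in WT (2.81%). On day 2 these shares were 1.44%, 1.50% and 1.94%, beside 1.70% in WT.

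The 2 WT lines show how far a member can differ with no gene deleted. Their values come from separate tables and were scaled to a common median. On day 1, 2 members were past the rule, where 11% of examined genes were: *Gcm1* was 17.1-fold higher in the *Smad4* line than in F1G4 (1.75 against 0.105) and *Krt7* 3.02-fold higher (6.78 against 2.31). On day 2 none was, where 5.08% of examined genes were, with *Gcm1* at 0.879 against 0.746 and *Krt7* at 9.02 against 10.2. *Tead4* was at 0.963 against 0.570 on day 1 and 1.43 against 1.07 on day 2, *Gata3* at 0.475 against 0.287 and 0.804 against 0.723, and *Tfap2a* at 0.109 against 0.395 and 0.202 against 0.349. *Elf5* and *Cga* were listed at 0 in both lines on both days. The *Gcm1* fold rests on an F1G4 value far below FPKM 1. On day 1 the distance between WT lines was larger for *Gcm1* and *Krt7* than the distance between *Smad4* KO and WT of that day. On day 2 the WT lines were closer for *Krt7*, at a log2 ratio of −0.15. That is smaller in size than the day 2 log2 ratios to WT of *Smad4* KO (−1.46), *Eomes* KO (−1.09), *T* KO (−0.53) and dKO (−0.46). *Krt8* (2.71-fold) and *Krt19* (5.97-fold) were also higher in the *Smad4* line on day 1.

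**Figure D4:**
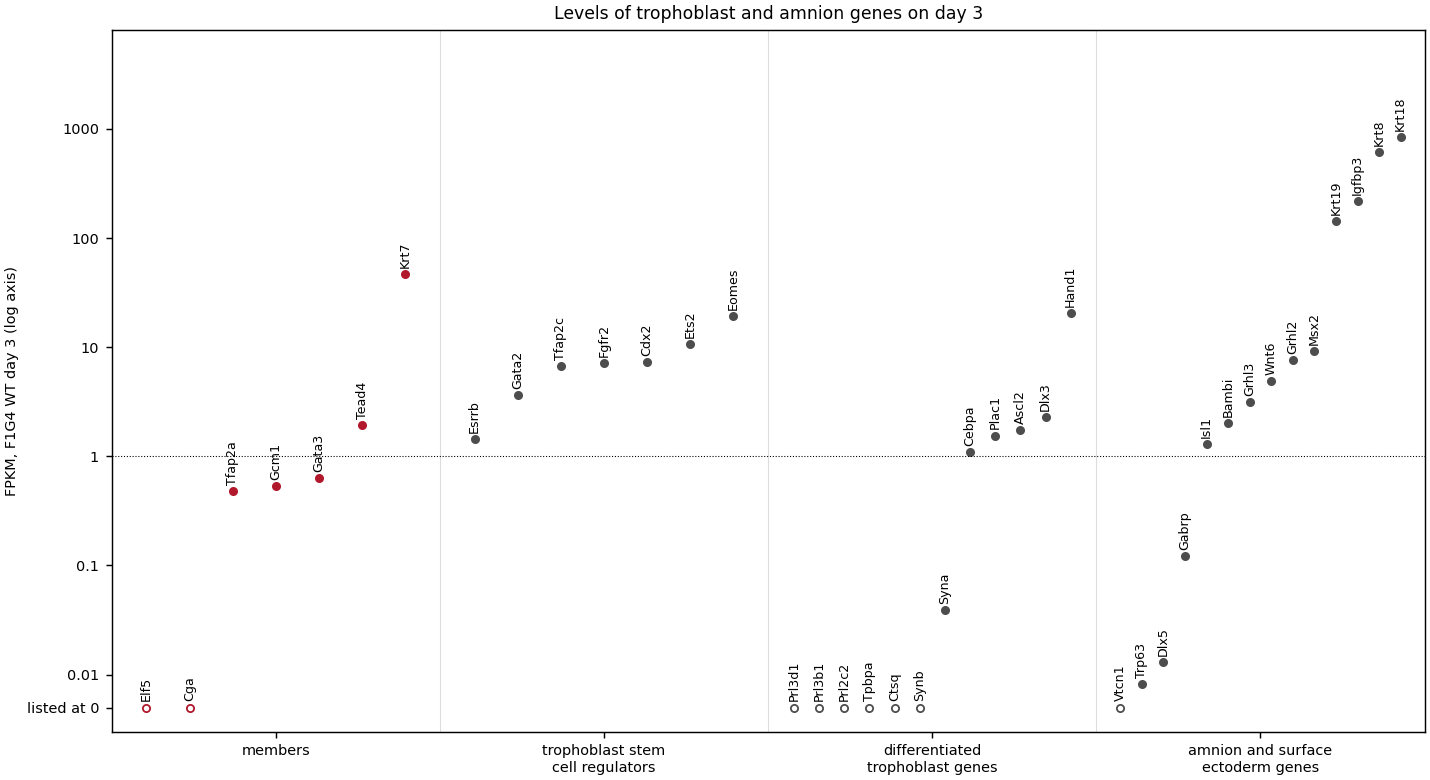
FPKM on day 3 in F1G4 WT (log axis, 1 pooled value per point, open symbols for genes listed at 0) of the 7 members in red and of the genes of 3 related lists in grey, each list sorted by level. *Krt7* (46.4) is the highest member but lies below *Krt18*, *Krt8*, *Igfbp3* and *Krt19*. *Tfap2a*, *Gcm1* and *Gata3* lie below the dotted line at FPKM 1, and *Elf5* and *Cga* are listed at 0 together with 6 of 12 differentiated trophoblast genes.

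Genes that act beside the members were split. Among 7 trophoblast stem cell regulators all had FPKM above 1 on day 3 in WT, with *Eomes* (19.4), the Ets factor *Ets2* (10.6) and *Cdx2* (7.30) on top, and 4 of 7 were called higher than at ES (*Cdx2*, *Eomes*, *Gata2* and *Ets2*) and 2 lower (*Tfap2c* and *Esrrb*), where 31.1% of all examined genes were called in either direction. *Cdx2*, a caudal homeobox factor of trophectoderm that posterior mesoderm also uses, went against its WT in opposite directions on the 2 days. Day 2 values were 3.65 (*Eomes* KO), 3.76 (*T* KO) and 3.66 (dKO) against 0.610 to 0.634 in WT, and day 3 values were 0.439, 0.498 and 1.96 against 7.35 to 7.58. *Gata3* shows no such drop on day 3. Of 12 differentiated trophoblast genes, the placental lactogens *Prl3d1* and *Prl3b1*, *Prl2c2*, the protease *Ctsq* and the syncytin *Synb* were listed at 0 in all 14 conditions, as *Elf5* and *Cga* nearly were. In WT, 5 of the 12 were examined on day 3 against ES. Of these, 4 were called higher (*Hand1*, *Plac1*, *Dlx3* and *Cebpa*) and none lower, beside the same 31.1% of all examined genes. Over the 6 above 0, the median log2 ratio of day 3 to ES, with a pseudocount of 0.1, was 2.74. The list's most abundant gene on day 3 was *Hand1*, a bHLH factor of trophoblast giant cells that is also a factor of lateral mesoderm, at 20.5 in WT, 62.9 in *Eomes* KO, 29.5 in *T* KO and 32.2 in dKO, and was called higher in *Eomes* KO. On day 2 *Hand1* lay the other way, at 1.71 in *Eomes* KO, 7.02 in *T* KO and 2.78 in dKO against 8.57 to 8.95 in WT, and was called lower in *Eomes* KO and dKO. *Plac1*, a placental membrane protein, was at 1.55 in WT on day 3 and was called higher in all 3 KO lines (9.99, 4.40 and 8.63). *Ascl2*, a bHLH factor of the spongiotrophoblast, was at 1.75 in WT on day 3, at 5.31 in *T* KO, where it was called higher, and at 2.77 in *Eomes* KO and 0.919 in dKO. On day 2 *Ascl2* was called lower in all 3 KO lines, at 0.964 (*Eomes* KO), 0.480 (*T* KO) and 0.581 (dKO), with 2.65 in WT of the time course. On day 3, 5 of the 12 genes were examined in each line. Of them, 2 were called higher in *Eomes* KO, 2 in *T* KO and 1 in dKO, and none lower, where 16.4%, 6.04% and 11% of all examined genes were called. The median log2 ratio of the 6 with a value above 0, with a pseudocount of 0.1, was 0.53, 0.52 and −0.04. On day 2, 3 of the 12 were examined in each line, none was called higher, and 2, 1 and 2 were called lower. On that day 7.52%, 15.6% and 7.99% of all examined genes were called. The 5 with a value above 0 on day 2 were all below WT, with medians of −0.76, −0.60 and −0.75.

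Of 14 amnion and surface ectoderm genes, 3 of them the keratins *Krt8*, *Krt18* and *Krt19*, 10 had FPKM above 1 on day 3 in WT, and 7 were called higher than at ES and 2 lower, beside the same 31.1% of all examined genes. The lower pair were *Grhl2* (18.6 at ES, 7.57 on day 3) and *Grhl3* (7.16 and 3.14), grainyhead factors of surface ectoderm. *Igfbp3*, a secreted IGF-binding protein, went from 7.34 to 219 and the homeobox gene *Msx2* from 0.0165 to 9.21. *Trp63*, the master factor of stratified epithelia, was at 0.00823 in WT on day 3 and at 1.28 in *Eomes* KO, 0.289 in *T* KO and 0.985 in dKO. *Isl1*, a LIM homeobox gene of amnion and of cardiac progenitors, was at 1.31 in WT on day 3 and was called lower in *Eomes* KO (0.470), *T* KO (0.180) and dKO (0.117). *Gabrp* and *Vtcn1*, other genes of amnion, stayed below FPKM 0.5 in all 14 conditions. *Igfbp3* was called lower in all 3 KO lines on day 3, at 41.8, 32.5 and 47.5 against 221 to 229. *Bambi*, a decoy receptor that BMP signals induce, was called higher in dKO (5.86 against 2.12). Of the 14 genes on day 3, 11 were examined in *Eomes* KO, 10 in *T* KO and 10 in dKO. *Igfbp3* and *Isl1* were those called lower in each line, and *Trp63* in *Eomes* KO and *Bambi* in dKO were those called higher, beside the same shares of all examined genes. The median log2 ratio of the 14, with a pseudocount of 0.1, was 0.49 in *Eomes* KO, 0.09 in *T* KO and 0.56 in dKO. On day 2 these medians were −0.30, 0.07 and −0.36. *Msx2* was then called higher in each line, *Krt19* and *Grhl3* lower in *Eomes* KO and dKO, and *Igfbp3* lower in dKO. The day 2 shares of all examined genes called were 7.52%, 15.6% and 7.99%, and 9 of the 14 were examined in each line.

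The other genes of the *Elf5*, *Gcm1* and *Cga* families differed in level. *Elf1*, *Elf2* and *Elf3*, Ets factors of the family of *Elf5*, had FPKM of 11.7, 21.5 and 8.50 on day 3 in WT, and *Elf4* 1.34. *Elf4* alone of the 5 was called against ES, higher, where 31.1% of all examined genes were called in either direction. *Elf3*, an epithelial member, was called lower on day 2 in *Smad4* KO (2.37 against 5.06; 5.77% of all examined genes called), in *Eomes* KO (3.26 against 7.07; 7.52%), in *T* KO (3.64 against 7.35; 15.6%) and in dKO (2.73 against 7.05; 7.99%). On day 3 *Elf3* was not called in any line, and *Elf4* was called lower in dKO (11% of all examined genes called). *Gcm2*, the other *Gcm* gene, was listed at 0 in all 14 conditions, and the hormone beta subunits *Fshb*, *Lhb* and *Tshb* stayed below FPKM 0.5.

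Genes of 2 other cell states were read beside the members. Of 6 primitive endoderm genes, *Gata4*, *Gata6*, *Sox17* and *Sox7* stayed below FPKM 1 in all 14 conditions. *Pdgfra*, a growth factor receptor that mesoderm also uses, was at 1.80 in WT on day 3 and was called lower in *Eomes* KO (0.610), *T* KO (0.249) and dKO (0.443). *Dab2*, an endocytic adaptor, was at 1.28 in WT and stood above its WT in the same lines, at 2.52, 2.53 and 1.82, with no call. Of 5 pluripotency genes, 4 were called lower on day 3 than at ES (*Pou5f1*, *Zfp42*, *Esrrb* and *Sox2*), with *Pou5f1* at 465 after 1002. In that comparison 31.1% of all examined genes were called in either direction.

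Feeder fibroblasts, which were removed before differentiation, were looked for with 8 genes. *Col1a1*, *Col1a2*, *Col3a1* and *Lum* stayed below FPKM 1 in all 14 conditions. *Dcn*, a proteoglycan of connective tissue, was listed at 0 in WT of the *Smad4* line on day 2 and stood at 2.02 in the KO, where it was called higher. *Postn*, a matrix protein of fibroblasts, was called higher in *Eomes* KO on day 3 (1.46 against 0.496). In both of these comparisons all 8 genes were above WT. *Thy1*, a surface protein of fibroblasts and other cells, ranged from 0.390 to 2.97 over the conditions. *Acta2*, the most abundant of the 8 in all but 1 condition and a gene of smooth muscle and early mesoderm as well, was at 10.7 in WT on day 3 and at 35.9 in *Eomes* KO, 14.9 in *T* KO and 80.1 in dKO. The summed FPKM of the 8 genes was 12.8 in WT on day 3, 40.3 in *Eomes* KO, 16.6 in *T* KO and 83.2 in dKO, and in the *Smad4* line on day 2 it was 8.37 in WT and 11.6 in KO. Whether cells with these genes had a part in the *Krt7* or *Tfap2a* values was not tested.

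The genes whose profile was most like that of each member were found by Pearson correlation of log2(FPKM + 0.1) over the 14 conditions, among 9191 genes with FPKM of at least 5 in 1 condition and at least 1 in 5. The points share lines, days and tables, so r is a description only. *Krt7* was most like *Tinagl1* (r = 0.98), *Pmp22* (0.98) and *Igf2* (0.97). *Tead4* was most like *Il6st* (0.89), *Sbno2* (0.88) and *Lmna* (0.88). *Gata3* was most like *Cda* (0.95), *Msl3* (0.94) and *Zfp36l3* (0.94), *Tfap2a* like *Dusp9* (0.89), *Itgb3bp* (0.88) and *Zcchc11* (0.88), and *Gcm1* like *Nodal* (0.75), *Lhpp* (0.73) and *Ndufaf6* (0.72). All 3 neighbours of *Tfap2a* had their highest FPKM in *Eomes* KO on day 3, as *Tfap2a* did. They were chosen for their likeness over these same conditions, so the shared peak is no separate evidence for the *Tfap2a* value.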

How the data were processed

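RNA-seq of 18 samples in 14 conditions was used, from a series of 51 samples that also holds 24 ATAC-seq and 9 ChIP-seq samples, not analysed here. Per the labels and the study's methods, reads were trimmed with cutadapt 2.9 and aligned with HISAT2 2.1.0 to mm10 with RefSeq annotation. The authors deposited FPKM values computed with Cuffdiff 2.2.1, normalized within each table and with the samples of a condition merged. Labels give 1 sample per KO line and day, whereas the study describes averages of replicates, so the number of samples behind a KO value is unclear. Depth is unknown, and FPKM does not give it.

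Ratios were taken within a table, without a pseudocount, in Python 3.11.15 (pandas 2.3.3, numpy 2.4.6). Genes with FPKM above 1 in either condition were examined and those with a log2 ratio above 1 or below −1 were called, after the study's rule. The WT columns of the 2 lines were scaled to a median log2 ratio of 0. All 7 members are named in every comparison. In further gene lists (cell types, families, pathways) every gene was counted, and a selection of those with FPKM above 1 in at least 1 condition is named, mostly abundant or called ones, beside genes singled out after their values were seen for being at or near 0. For each member that reached FPKM 1, the 3 genes of highest correlation are named. Members and lists were chosen with earlier results of these data known. Alternatives were pseudocounts of 0.1 and 1, no FPKM minimum or one of 5, rescaling to TPM, and scaling to a median ratio of 0.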

Additional observations from a re-analysis of the deposited data

Results flagged for a closer look

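For 3 results the KO and WT columns of 1 line differed in opposite directions on days 2 and 3, with at least 1 of the days called. Each rests on 1 value per condition and the difference between days was not tested. *Krt7* in *Eomes* KO had a log2 ratio to WT of −1.09 on day 2 and 0.54 on day 3, 1.63 apart. *Krt7* in dKO had −0.46 and 1.23, 1.70 apart. *Tead4* in dKO had −1.36 and 0.18, 1.54 apart. *Krt7* in *T* KO changed sign in the same way (−0.53 and 0.75), with neither day called.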

How the results depend on the processing

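No called member changed direction under any of the 6 alternatives. A pseudocount of 0.1 and scaling to a median ratio of 0 left all 59 member ratios on the same side of the rule; TPM rescaling left the order of the 4 WT stages as it was for all 7 members. The other settings moved counts of called members by their construction, as they admit other levels or shrink ratios of low ones. With a pseudocount of 1, the count went to 1 (day 1 against ES) and to 0 (*Smad4* KO day 1, *Eomes* KO days 2 and 3, dKO day 2). The log2 ratios then were 0.81 for *Krt7* on day 1 against ES, −0.96 for *Gcm1* in *Smad4* KO day 1, −0.95 for *Krt7* and 0.74 for *Tfap2a* in *Eomes* KO days 2 and 3, and −0.54 for *Tead4* in dKO day 2. With FPKM above 5, the count was 0 for day 1 against ES, *Smad4* KO day 1, *Eomes* KO day 3 and dKO day 2. The calls kept under both were *Krt7* in the later WT steps, in *Smad4* KO day 2 and in dKO day 3. With no FPKM minimum, the count was 6, 3 and 5 for day 1 against ES, day 2 against day 1 and day 3 against ES, 4 on each day of *Smad4* KO, and 1 in *T* KO day 3 (*Elf5*, listed at 0 in WT). On the TPM scale it was 3 for day 2 against day 1, 4 for day 3 against ES and 3 for *Smad4* KO day 2.

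TPM rescaling moved the median log2 ratio of all examined genes to 0.13 in day 3 against ES, 0.27 in *Eomes* KO day 3, 0.12 in *T* KO day 2, −0.24 in *Eomes* KO day 2, −0.43 in dKO day 2 and −0.14 in dKO day 3; in the other 6 comparisons it stayed within 0.1 of 0. The calls over all genes, higher and lower, went from 376 and 468 to 391 and 1053 in *Eomes* KO day 2, from 859 and 1048 to 2083 and 812 in *Eomes* KO day 3, from 647 and 1128 to 1172 and 1083 in *T* KO day 2, and from 390 and 504 to 279 and 1869 in dKO day 2. In *Smad4* KO the calls over all genes went from 536 to 977 on day 1 and from 635 to 953 on day 2. Over the 12 comparisons, between 536 and 3591 genes were called in the report, 3598 to 7770 with no FPKM minimum, 122 to 2064 with FPKM above 5 and 176 to 2644 with a pseudocount of 1. No paired analysis was possible because each column is 1 merged value, and for the same reason leaving out a replicate was not possible. Values under FPKM 1 rest on an unknown number of reads.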
